A study of Homo sapiens with 9 samples.

Results

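The genes described are 52 named genes of the cell cycle and of DNA replication, listed by symbol and by role, out of 24672 genes in the deposited tables. They were chosen with earlier results of these data known. All 52 were found in each of the 9 tables and all 52 passed the filter on low counts, which kept 12806 genes. The libraries came from EPC2, a line of esophageal epithelium made immortal by telomerase (TERT), and the study asked what silencing of SPINK7, a serine protease inhibitor gene of squamous epithelium, does to cells that differentiate at an air-liquid interface (ALI). Every group grew in keratinocyte serum-free medium that held bovine pituitary extract (50 ug/mL) and epidermal growth factor (1 ng/mL). The 3 ALI silenced libraries (SPINK7) came from EPC2 cells with SPINK7 silenced and differentiated at the ALI. The 3 ALI control libraries came from EPC2 cells with a non-silencing control (NSC) handled in the same way. Cells of both ALI groups grew submerged to confluence in 0.09 mM calcium, received 1.8 mM calcium from day 2 and air from day 7, and day 14 was the harvest. The 3 monolayer libraries came from NSC cells that were left undifferentiated, with no harvest day given. The labels name no silencing construct, describe no other silenced line and leave unsaid if libraries within a group were separate cultures, so each p-value rests only on the variation among the 9 libraries, and that may be technical.

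A cell that enters S phase opens its replication origins with the MCM helicase, which CDC6 and CDT1 load onto DNA, and then raises the supply of nucleotides. A cell that enters mitosis uses cyclin-bound CDK1, the Polo and Aurora kinases, the kinetochore and the spindle, and it leaves mitosis when the anaphase-promoting complex with CDC20 marks securin and cyclins for destruction. In stratified squamous epithelium division is largely a property of cells at or near the basal layer, and differentiating cells above it withdraw from the cycle. E2F proteins act on many replication genes, and the MYBL2-containing and FOXM1 complexes act on many mitotic genes through a promoter element called the cell cycle genes homology region (CHR), often with CCAAT boxes beside it.

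Promoter windows of 42 of the 52 genes were present in the RefSeq table (build GRCh38.p14, 300 bases each, most of them before the start site), and 4 of them are shown because they carry the 3 kinds of motif searched and stand for 4 roles. Capitals mark the letters matched. The first motif was the CHR core, TTTGAA. The second was the box CCAAT. For E2F the string TTCCCGC was searched, with TTGGCGC as another form, then TTCGCGC and finally TTGCCGC. Each was searched on both strands, and the form TTGGCGC can share letters with the reverse of the CCAAT box. CCNA2, cyclin A2, is at chr4:121823834-121824133 on the minus strand. KIF11, the motor that separates spindle poles, is at chr10:92592880-92593179 on the plus strand. E2F1 is at chr20:33686336-33686635 on the minus strand, and MCM2, a helicase subunit, is at chr3:127598161-127598460 on the plus strand.
CCNA2: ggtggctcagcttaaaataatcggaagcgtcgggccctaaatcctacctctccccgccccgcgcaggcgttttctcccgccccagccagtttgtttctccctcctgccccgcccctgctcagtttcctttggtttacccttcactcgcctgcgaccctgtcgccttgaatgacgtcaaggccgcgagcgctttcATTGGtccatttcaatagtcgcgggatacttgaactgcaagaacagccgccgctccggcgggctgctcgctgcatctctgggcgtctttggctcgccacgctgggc
KIF11: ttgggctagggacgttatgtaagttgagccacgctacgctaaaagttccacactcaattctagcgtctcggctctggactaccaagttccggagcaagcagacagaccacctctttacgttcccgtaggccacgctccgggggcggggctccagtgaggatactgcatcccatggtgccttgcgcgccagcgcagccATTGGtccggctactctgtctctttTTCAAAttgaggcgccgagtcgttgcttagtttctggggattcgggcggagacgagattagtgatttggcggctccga
E2F1: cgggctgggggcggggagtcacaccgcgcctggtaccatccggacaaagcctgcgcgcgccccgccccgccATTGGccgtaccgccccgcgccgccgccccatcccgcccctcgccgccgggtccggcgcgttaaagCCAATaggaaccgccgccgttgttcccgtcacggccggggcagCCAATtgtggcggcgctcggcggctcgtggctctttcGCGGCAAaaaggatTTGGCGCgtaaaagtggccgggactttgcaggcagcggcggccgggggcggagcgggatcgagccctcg
MCM2: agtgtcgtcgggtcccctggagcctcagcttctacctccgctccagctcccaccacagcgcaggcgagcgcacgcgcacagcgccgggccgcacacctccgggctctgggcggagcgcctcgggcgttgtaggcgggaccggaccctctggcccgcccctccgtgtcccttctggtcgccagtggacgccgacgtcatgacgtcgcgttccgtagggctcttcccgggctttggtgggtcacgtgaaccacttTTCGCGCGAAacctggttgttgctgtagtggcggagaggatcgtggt
The CCNA2 window has 1 reversed CCAAT box that begins 56 bases before the start site. In KIF11 the reversed CCAAT box begins 53 bases and the reversed CHR core 28 bases before it. E2F1 has 3 CCAAT boxes, and its 2 E2F strings lie 33 and 19 bases before the start site. MCM2 has 2 overlapping E2F strings that lie 3 to 12 bases after it.

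The CHR core was found in 19 of the 42 windows (45.2%), against 15.2% of the 35116 windows in the table. CCAAT was in 32 (76.2%), against 34.6% of all windows, and an E2F string in 18 (42.9%), against 13.0%. By role, none of 13 matched replication and S phase genes held the CHR core, while 19 of 27 matched genes of chromosome structure, mitosis and cytokinesis did. An E2F string was in 10 of the 13 and in 7 of the 27. These are letter matches and no binding was measured. The windows of AURKA, BIRC5, TTK, TPX2, UBE2C, RACGAP1, FOXM1, MCM4, MCM5 and CCNE2 were not used here.

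Total counts lay between 8619938 and 14009746 in the ALI silenced libraries, between 7641960 and 9863537 in the ALI controls and between 9034424 and 12989094 in the monolayers. SPINK7 had 20.9, 38.6 and 32.7 CPM (read counts scaled to library sizes adjusted by the trimmed mean of M values) in ALI silenced libraries 1 to 3, against 229, 261 and 225 CPM in the ALI controls, and it fell (log2 fold change -2.95, SE 0.30, adjusted p = 0.00246). All 20 suprabasal and cornified markers rose in the ALI controls over the monolayers, with summed levels of 20804 to 22110 CPM in ALI controls and 31.4 to 40.7 CPM in monolayers. The same list summed to 4035, 4895 and 4912 CPM in the ALI silenced libraries. One library in each ALI arm stood apart in the genes described here, the library numbered 2. It carried the highest total of the silenced arm (14009746) and the middle total of the control arm (8740424), and the labels name no batch. Every comparison that rests on the ALI libraries is therefore also given without both libraries 2. Those libraries were set aside with the low level of these same genes known, which narrows the spread of these genes in particular. Counts without them describe the libraries that remain and are no independent test, and their distance from the share of all genes cannot be read as support.

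The summed level of the 52 genes was 1717, 267 and 1675 CPM in ALI silenced libraries 1, 2 and 3, against 772, 345 and 862 CPM in the ALI controls, and 384, 479.9 and 481 CPM in the monolayers. Silenced libraries 1 and 3 thus lay above every other library, control libraries 1 and 3 came next, the monolayers followed, and both ALI libraries 2 lay lowest. In these bulk libraries fewer cycling cells and less RNA of these genes per cell cannot be told apart. Below, 3 values in a row are libraries 1, 2 and 3.

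**Figure D1:**
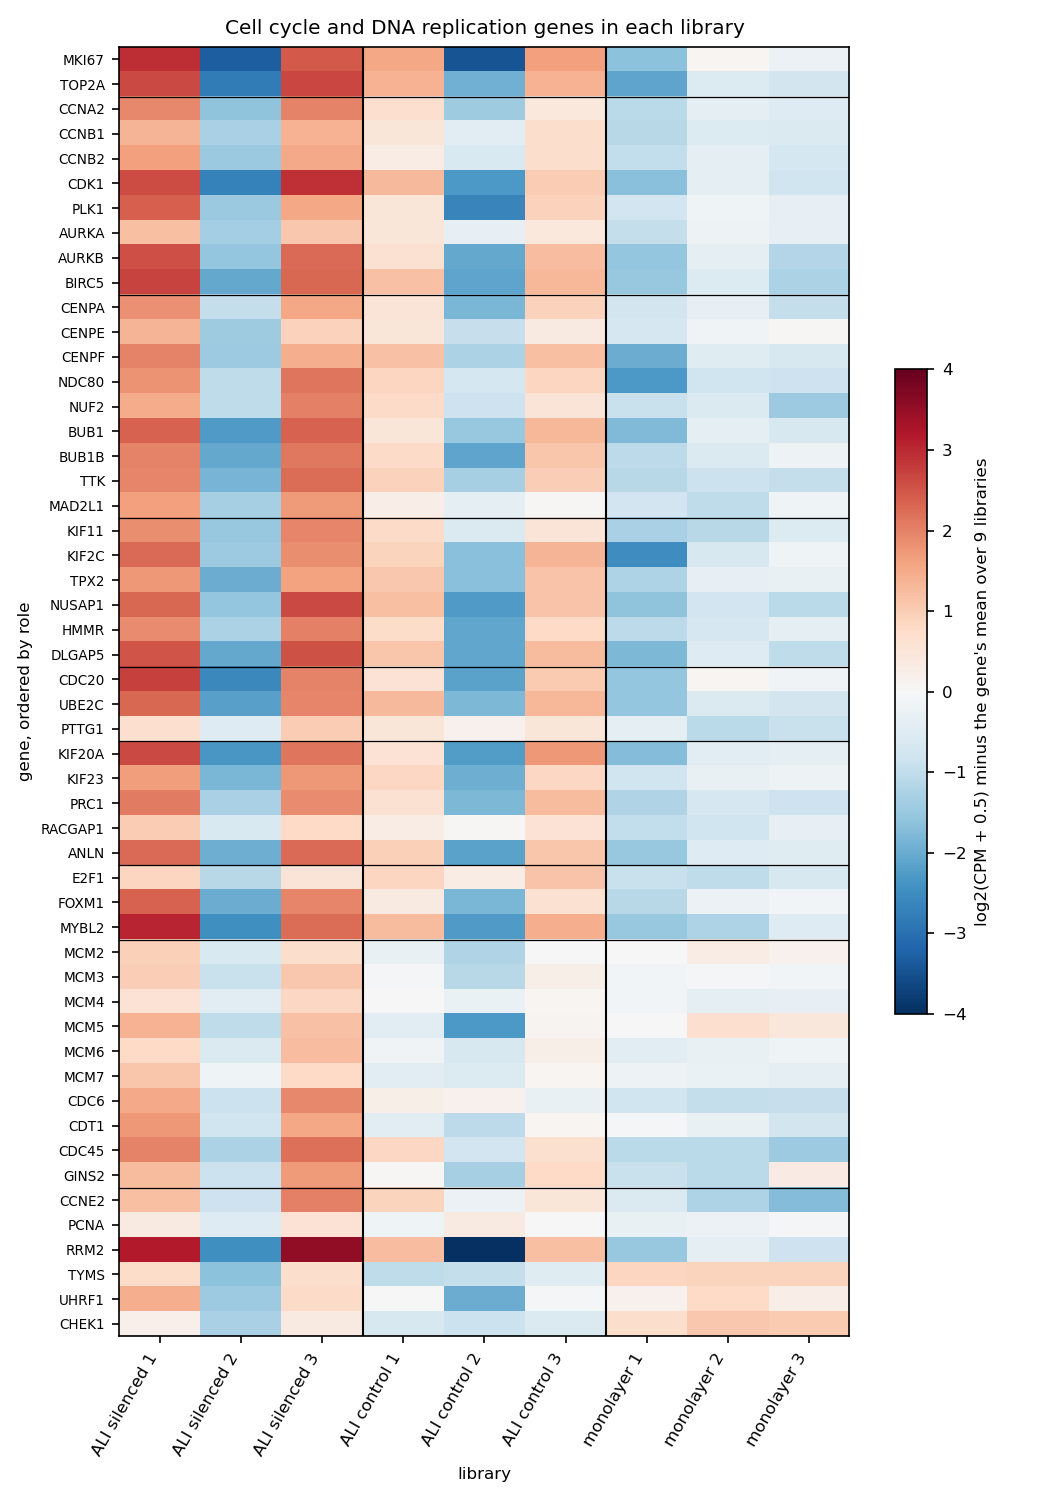
Level of each of the 52 genes (down the page, by role) in each of the 9 libraries (across), as log2(CPM + 0.5) minus the gene's mean over the 9 libraries. ALI silenced and ALI control libraries 1 and 3 are mostly red, ALI libraries 2 mostly blue and the monolayers between, while TYMS and CHEK1 at the bottom are highest in the monolayers.

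MKI67, the Ki-67 protein that coats mitotic chromosomes (hg19, chr10:129894925-129924468, minus strand), had 106, 0.893 and 74.8 CPM in the ALI silenced libraries, 39.6, 0.757 and 42.1 CPM in the ALI controls, and 3.89, 13.9 and 11.1 CPM in the monolayers. TOP2A, the topoisomerase that untangles sister DNA, had 98.4, 1.79 and 102 CPM in the ALI silenced libraries, 41.5, 3.66 and 41.5 CPM in the ALI controls, and 3.19, 10.4 and 9.15 CPM in the monolayers. Both genes were high in libraries 1 and 3 of each ALI arm and lower in ALI library 2 than in the lowest monolayer, except that TOP2A in control library 2 was just above monolayer library 1. MKI67 in silenced library 2 rested on 13 counts and in control library 2 on 6.

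Among the mitotic cyclins and kinases, CDK1, the kinase that drives entry into mitosis, had 41.6, 0.550 and 51.4 CPM in the ALI silenced libraries, 16.2, 0.883 and 13.3 CPM in the ALI controls, and 1.63, 4.86 and 3.41 CPM in the monolayers. AURKA, the centrosomal Aurora kinase, had 26.5, 4.12 and 24.3 CPM in the ALI silenced libraries, 16.2, 8.83 and 15.4 CPM in the ALI controls, and 5.67, 9.71 and 8.83 CPM in the monolayers. BIRC5 (survivin), a subunit of the Aurora B complex, had 27.5, 0.550 and 20.8 CPM in the ALI silenced libraries, 9.11, 0.505 and 10.4 CPM in the ALI controls, and 0.991, 2.43 and 1.28 CPM in the monolayers. The 3 genes shared the order of libraries 1 and 3, but AURKA in ALI library 2 lay far less below them than CDK1 and BIRC5 did. AURKB, the Aurora kinase of the same complex as BIRC5, had no count in control library 2, where 3 counts correspond to 0.378 CPM, and 2.68 and 4.34 CPM in control libraries 1 and 3.

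Of the kinetochore and checkpoint genes, BUB1, a checkpoint kinase, had 25.5, 0.550 and 25.6 CPM in the ALI silenced libraries, 6.56, 1.26 and 12.3 CPM in the ALI controls, and 0.991, 3.34 and 2.77 CPM in the monolayers. CENPF, a protein of the outer kinetochore, had 44.6, 3.71 and 31.1 CPM in the ALI silenced libraries, 25.4, 4.29 and 25.6 CPM in the ALI controls, and 2.41, 7.59 and 6.81 CPM in the monolayers. NDC80, which binds kinetochores to microtubules, had 11.6, 1.24 and 14.9 CPM in the ALI silenced libraries, 5.89, 1.64 and 5.82 CPM in the ALI controls, and 0.212, 1.52 and 1.49 CPM in the monolayers. For NDC80 all 3 controls lay above all 3 monolayers, whereas control library 2 lay inside the monolayer range for BUB1 and CENPF.

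The spindle factor DLGAP5 had 17.7, 0.275 and 18.3 CPM in the ALI silenced libraries, 6.43, 0.252 and 7.19 CPM in the ALI controls, and 0.425, 1.72 and 1.06 CPM in the monolayers. TPX2, which activates AURKA on the spindle, had 66.0, 4.53 and 59.9 CPM in the ALI silenced libraries, 41.8, 5.68 and 43.0 CPM in the ALI controls, and 7.93, 15.2 and 15.6 CPM in the monolayers. In both, ALI library 2 was below every monolayer. CDC20, the activator of the anaphase-promoting complex, had 43.8, 0.618 and 26.0 CPM in the ALI silenced libraries, 9.51, 1.01 and 13.3 CPM in the ALI controls, and 1.77, 6.48 and 5.53 CPM in the monolayers. UBE2C, the ubiquitin-conjugating enzyme of that complex, had 21.1, 0.481 and 16.5 CPM in the ALI silenced libraries, 10.3, 0.757 and 10.5 CPM in the ALI controls, and 0.991, 2.43 and 2.13 CPM in the monolayers. PTTG1 (securin), the inhibitor of separase, had 24.0, 10.1 and 30.6 CPM in the ALI silenced libraries, 20.8, 16.5 and 20.8 CPM in the ALI controls, and 11.4, 6.68 and 7.77 CPM in the monolayers. PTTG1 spanned a narrow range across the ALI libraries, and its 3 control libraries all lay above the monolayers.

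Among the cytokinesis genes, KIF20A, a motor of the central spindle, had 21.5, 0.206 and 15.2 CPM in the ALI silenced libraries, 4.82, 0.252 and 11.4 CPM in the ALI controls, and 0.567, 2.12 and 2.23 CPM in the monolayers. RACGAP1, a subunit of centralspindlin, had 53.2, 17.0 and 46.1 CPM in the ALI silenced libraries, 32.5, 27.0 and 39.8 CPM in the ALI controls, and 13.1, 14.9 and 20.9 CPM in the monolayers. ANLN (anillin), a scaffold of the contractile ring, had 88.3, 4.26 and 89.0 CPM in the ALI silenced libraries, 35.6, 3.66 and 39.7 CPM in the ALI controls, and 5.95, 12.5 and 12.7 CPM in the monolayers. KIF20A and ANLN were below all monolayers in ALI library 2, whereas the 3 RACGAP1 controls were above all monolayers.

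E2F1, the transcription factor of the G1 to S transition, had 3.55, 0.550 and 2.69 CPM in the ALI silenced libraries, 3.62, 2.27 and 4.44 CPM in the ALI controls, and 0.708, 0.607 and 0.958 CPM in the monolayers. FOXM1, a factor of G2 and mitotic genes, had 22.4, 0.618 and 16.9 CPM in the ALI silenced libraries, 5.22, 0.757 and 6.34 CPM in the ALI controls, and 1.56, 3.34 and 3.62 CPM in the monolayers. MYBL2 (B-MYB), a partner in the same programme, had 34.8, 0.275 and 19.4 CPM in the ALI silenced libraries, 9.64, 0.378 and 11.2 CPM in the ALI controls, and 0.991, 1.32 and 2.45 CPM in the monolayers. E2F1 differed from the other two in that silenced libraries 1 and 3 were no higher than control libraries 1 and 3, and its controls lay wholly above the monolayers.

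Of the licensing genes, MCM4, a subunit of the replicative helicase, had 101, 50.6 and 119 CPM in the ALI silenced libraries, 68.4, 55.9 and 72.0 CPM in the ALI controls, and 62.0, 52.8 and 53.1 CPM in the monolayers. CDT1, a loader of that helicase, had 6.45, 0.687 and 5.62 CPM in the ALI silenced libraries, 1.07, 0.505 and 1.69 CPM in the ALI controls, and 1.49, 1.21 and 0.745 CPM in the monolayers. CDC45, which joins the helicase when it fires, had 9.62, 0.550 and 11.2 CPM in the ALI silenced libraries, 4.02, 1.01 and 3.49 CPM in the ALI controls, and 0.708, 0.708 and 0.426 CPM in the monolayers. MCM4 spanned a narrow range, CDT1 in the controls overlapped the monolayers, and the CDC45 controls lay above them.

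In the S phase group, PCNA, the sliding clamp of the replication fork, had 89.3, 48.3 and 104 CPM in the ALI silenced libraries, 61.1, 89.0 and 69.8 CPM in the ALI controls, and 56.0, 58.7 and 66.0 CPM in the monolayers. RRM2, a subunit of ribonucleotide reductase, had 71.1, 0.962 and 91.9 CPM in the ALI silenced libraries, 18.4, 0 and 17.7 CPM in the ALI controls, and 2.27, 5.77 and 4.04 CPM in the monolayers. RRM2 thus had the widest span of the group, with no count in control library 2, and PCNA was highest of the controls in that library. CCNE2 (cyclin E2), a partner of CDK2 at S phase entry, had 4.95, 0.824 and 8.90 CPM in the ALI silenced libraries, 3.88, 1.51 and 2.75 CPM in the ALI controls, and 1.06, 0.506 and 0.213 CPM in the monolayers. TYMS, the thymidylate synthase (hg19, chr18:657604-673499, plus strand), had 26.2, 4.60 and 25.3 CPM in the ALI silenced libraries, 7.37, 7.82 and 11.0 CPM in the ALI controls, and 28.6, 29.1 and 29.2 CPM in the monolayers. CHEK1, the kinase of the replication checkpoint (hg19, chr11:125495031-125546150, plus strand), had 19.8, 6.60 and 22.1 CPM in the ALI silenced libraries, 10.8, 9.21 and 11.3 CPM in the ALI controls, and 28.0, 36.5 and 35.7 CPM in the monolayers. TYMS and CHEK1 differed from the other genes in being highest in the monolayers, above every ALI library of either arm.

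**Figure D2:**
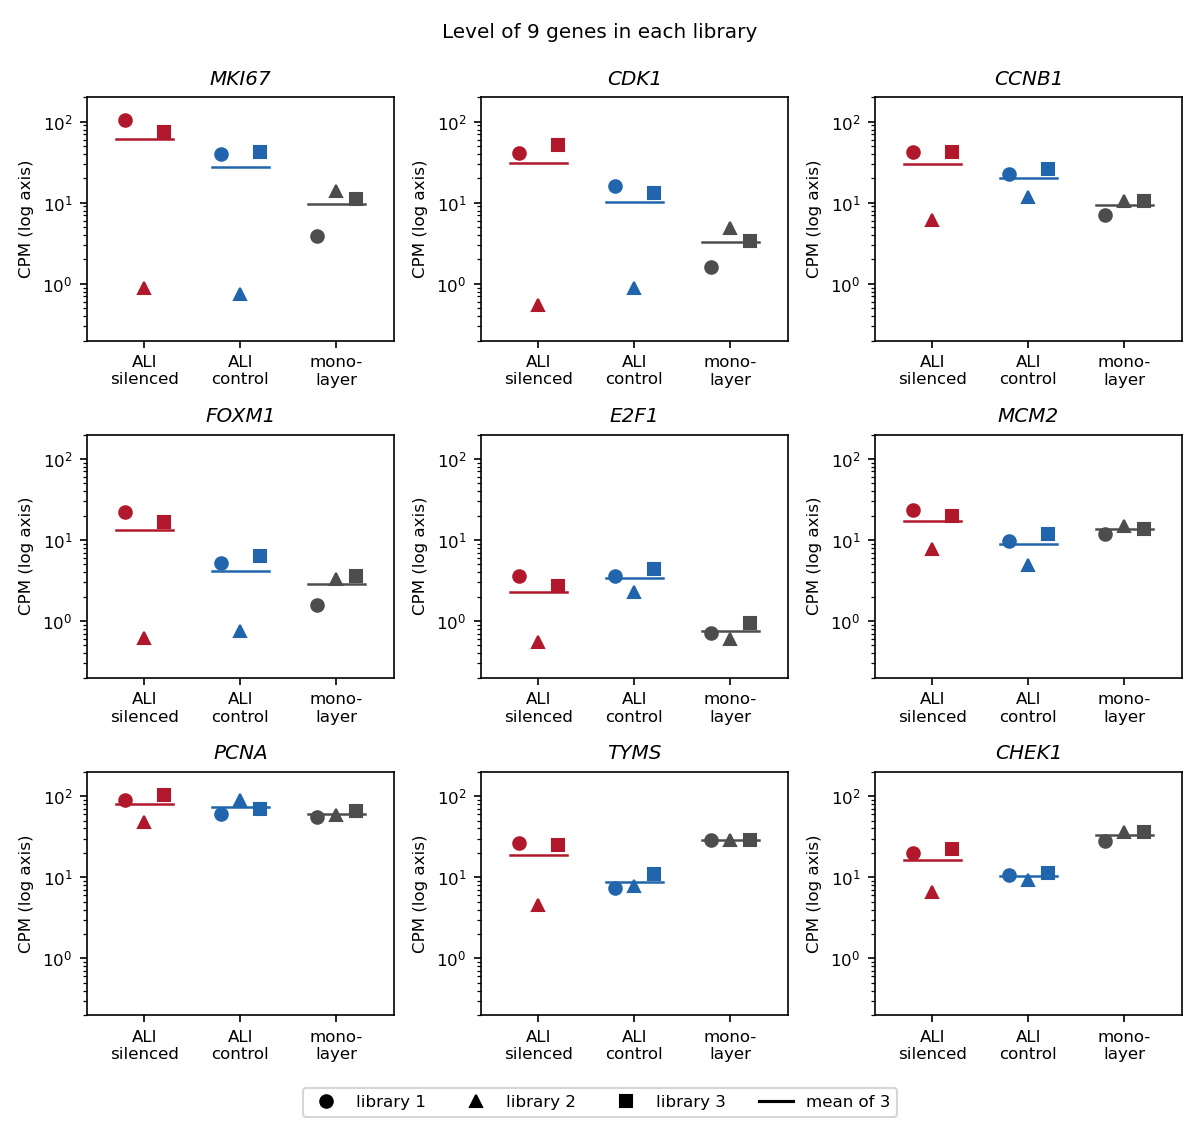
CPM on a log axis of 9 of the genes in each library, with ALI silenced, ALI control and monolayer from left to right, a symbol for each library number and a line at the mean of 3. For MKI67, CDK1 and FOXM1 the triangles of the ALI groups (library 2) lie below all monolayers, while TYMS and CHEK1 are highest in the monolayers.

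Levels between genes were compared only per length, on the deposited RPKM summed over a gene's entries. PCNA led in all groups, with 51.4 ± 18.1 RPKM in the ALI silenced libraries, 42.8 ± 5.06 RPKM in the ALI controls and 40.0 ± 3.72 RPKM in the monolayers (SD, n = 3 each). PTTG1 was next in both ALI groups, at 26.0 ± 12.5 RPKM in the silenced and 21.8 ± 4.20 RPKM in the control libraries, whereas TYMS was next in the monolayers at 16.5 ± 0.279 RPKM. E2F1 was lowest in the silenced libraries (0.719 ± 0.485 RPKM), CDT1 in the controls (0.331 ± 0.194 RPKM) and CCNE2 in the monolayers (0.197 ± 0.141 RPKM). In the silenced libraries RRM2, UBE2C and CDK1 stood at 14.4 ± 12.5, 14.1 ± 11.9 and 14.1 ± 12.2 RPKM and did not differ beyond their spread.

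ALI library 2 was the lowest of its arm for 52 of 52 genes among the silenced libraries and for 49 of 52 among the controls, the exceptions being PCNA, CDC6 and TYMS. Of all genes tested, 39.0% were lowest in silenced library 2 and 45.4% in control library 2. Taken against the lower of libraries 1 and 3, library 2 held under 10% of the level for 28 genes in the silenced arm and for 15 in the control arm, while 0.789% and 0.945% of all genes tested did so. It held under 50% in both arms for 37 of the 52, against 2.70% of all genes tested. Silenced library 2 was below every monolayer for 40 genes and control library 2 for 33, and the share of all genes was not computed for these counts. Library 2 was singled out with the low level of these same genes known. The counts of this paragraph and the gaps by role below therefore describe that library and are no test, and their distance from the share of all genes cannot be read as support.

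The size of the gap varied with role. In the silenced arm library 2 held a median of 1.50% of the lower of libraries 1 and 3 for the genes of chromosome structure, 8.12% for mitotic cyclins and kinases, 10.7% for kinetochore genes and 7.04% for spindle genes. The licensing genes were at 23.2% and the S phase genes at 17.6%. In the control arm the same medians were 5.37%, 15.5%, 19.2% and 8.48%, against 49.0% for licensing and 70.0% for S phase genes. The extremes of the silenced arm were MKI67 at 1.19% and PCNA at 54.1%. In the control arm AURKB, CENPA (the centromeric histone) and RRM2 had no count in library 2, and PCNA stood at 145.8%.

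**Figure D3:**
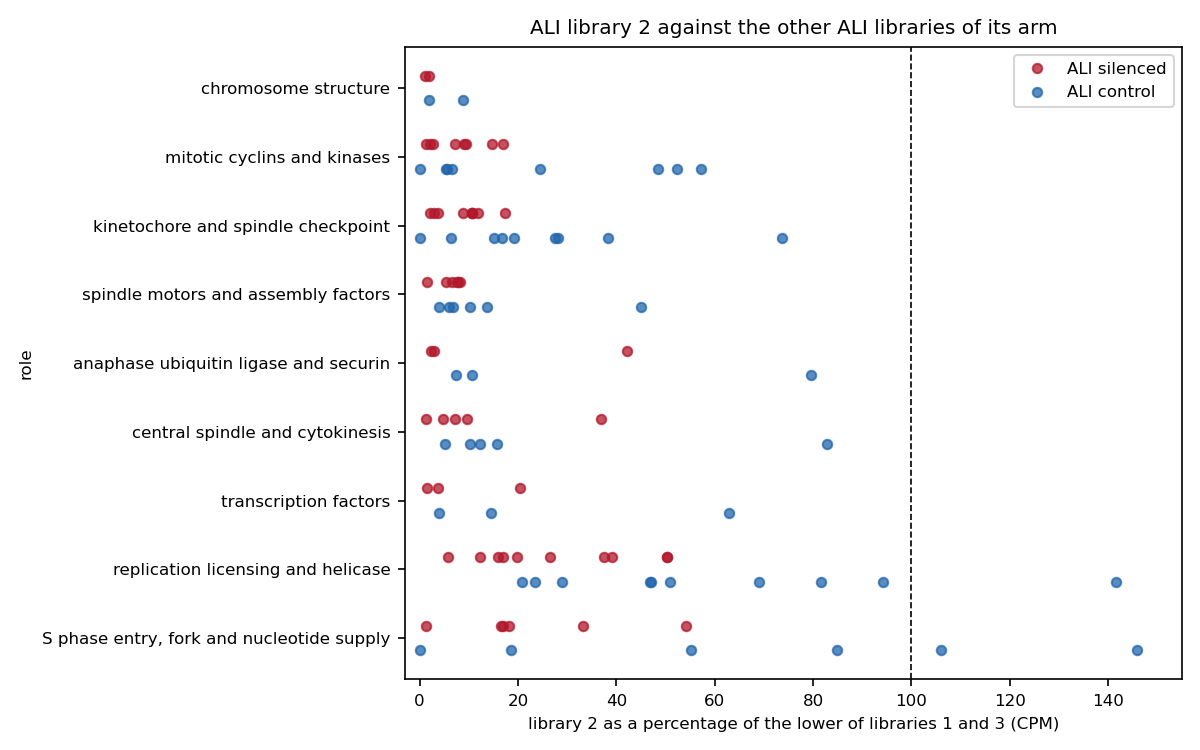
CPM in ALI library 2 as a percentage of the lower of libraries 1 and 3 of the same arm, 1 point for each gene, by role down the page, with the ALI silenced arm above the ALI control arm and a dashed line at 100%. Points of the mitotic roles crowd toward 0, and those of licensing and S phase genes spread further right, up to 145.8% for PCNA in the control arm.

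Other gene lists moved with library 2 as well. The 12 basal keratinocyte markers summed to 60072, 32078 and 45857 CPM in the ALI silenced libraries, 40854, 20393 and 48506 CPM in the ALI controls, and 46560, 54467 and 52133 CPM in the monolayers. The 27 ribosomal protein genes, which move with RNA quality and with growth, summed to 18277, 22374 and 18566 CPM in the ALI silenced libraries, 17230 CPM in control library 1, 42106 in control library 2 and 22534 in control library 3, and 25264, 18434 and 18412 CPM in the monolayers. Basal markers were thus lowest and ribosomal protein genes highest in library 2 of each ALI arm. The 16 listed p53 targets and growth arrest genes summed to 1848, 2238 and 1651 CPM in the ALI silenced libraries, 1524, 1895 and 1592 CPM in the ALI controls, and 2638 to 2672 CPM in the monolayers, so library 2 was the highest of each ALI arm for this list as well. The part of these lists in the gap was not tested.

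Markers of other cell types were near 0 or spread over few genes. Of 10 leukocyte markers, PTPRC (CD45), FCER1A and TYROBP were among those with no count in any library, and the list summed to 0.654, 9.41 and 0.937 CPM in the ALI silenced libraries, 2.54, 11.1 and 2.11 CPM in the ALI controls, and 2.12 to 3.68 CPM in the monolayers. CD14 made up 120 counts in silenced library 2 and 88 in control library 2. Of 12 fibroblast markers, LUM had no count, and the list summed to 28.2 to 47.2 CPM in the ALI silenced libraries, 44.9 to 59.2 CPM in the ALI controls, and 283, 62.9 and 63.9 CPM in the monolayers, mostly COL1A1 and POSTN. Of 6 endothelial markers CLDN5 had no count, and the list was led by VWF, with 2.24, 1.99 and 1.40 CPM in the ALI silenced libraries, 8.84, 2.65 and 9.41 CPM in the ALI controls, and at most 0.354 CPM in a monolayer. Of 6 melanocyte markers TYR and DCT had no count and the list stayed between 1.72 and 7.82 CPM. Monolayer library 1, highest in fibroblast markers, was also the lowest monolayer for 39 of the 52 genes, and the part of those markers in its levels was not tested.

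Silencing of SPINK7 was compared at the ALI, as ALI silenced over ALI control libraries. None of the 52 genes passed at an adjusted p under 0.05 (edgeR quasi-likelihood test over all 12806 genes), in either direction, where 0.226% of all genes passed as higher and 0.703% as lower. The unadjusted p was under 0.05 for 3 genes, MCM2, MCM7 and CDT1, and 9.16% of all genes had such a p. DESeq2, which called 1.09% of all genes as higher and 2.15% as lower, called none of the 52, and limma-voom called none either. With the library number as a block on the 2 ALI groups alone, 8 passed as higher, where 1.40% of all genes did. RRM2 gave 2.25 there (SE 0.36, adjusted p = 6.81e-05), but the labels do not say that equal numbers mark pairs. With that block over all 9 libraries none passed. In the main fit the log2 fold change was above 0 for 51 of 52 genes. Its median was 1.11, against 0.01 over all genes tested, and E2F1 was the exception at -0.63 (SE 0.58). No gene had silenced and control libraries that did not overlap, against 5.76% of all genes as higher and 6.34% as lower. Layer markers moved in the same comparison, as 10 of the 20 suprabasal and cornified markers fell with a list median of -2.59, and 15 passed as lower without both libraries 2. With 1 library left out 5 to 13 of them passed as lower. None of the 12 basal markers passed in either direction, and the part of the layer markers in the cell cycle values was not tested.

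The intervals were wide. MKI67 gave a log2 fold change of 1.13 (SE 1.29), and CDK1 gave 1.61 with a 95% interval of -0.96 to 4.18. RRM2 had the highest value, 2.18 (interval -0.75 to 5.11, adjusted p = 0.679). MCM7, another helicase subunit, had the lowest adjusted p at 0.276 with 0.96 (interval 0.25 to 1.67), and its levels were 61.2, 24.9 and 49.4 CPM in the ALI silenced libraries, against 20.5, 19.3 and 29.6 CPM in the ALI controls. Of the MCM7 values in silenced libraries, that of library 2 alone lay inside the control range. PCNA and PTTG1 lay nearest to 0, at 0.14 (interval -0.49 to 0.76) and 0.15 (-0.68 to 0.97). By role the medians of the log2 fold change lay between 0.81 for the anaphase genes and 1.35 for the transcription factors.

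The labels do not say that equal numbers mark a shared culture, so single libraries were compared by level only. Silenced libraries 1 and 3 were both above control libraries 1 and 3 for 51 of the 52 genes, against 20.9% of all genes tested, with E2F1 as the exception. This count sets both libraries 2 aside under the limit given above, so its distance from that share cannot be read as support. Between the libraries numbered 2, the silenced one was higher for 22 genes and lower for 30, and the share of all genes was not computed for these counts.

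Without both libraries 2, 29 of the 52 genes passed as higher in the silenced libraries and none as lower, where 2.17% of all genes passed as higher and 3.31% as lower. The median log2 fold change was 1.17, close to the 1.11 with all libraries. By role, 9 of the 10 licensing genes passed, among them CDC6 (log2 fold change 1.83, SE 0.28) and CDT1 (2.10, SE 0.42), and GINS2, a subunit that joins the helicase with CDC45, gave 1.11 and did not pass. Of the 6 S phase genes RRM2 (2.18, SE 0.30), TYMS (1.47, SE 0.22), UHRF1 (a reader of hemimethylated DNA; 1.27) and CHEK1 (0.92) passed. The mitotic genes were divided. CCNA2, CDK1, PLK1 and BIRC5 passed among the 8 cyclins and kinases, BUB1B, TTK and MAD2L1 among the 9 kinetochore genes, KIF11, NUSAP1, HMMR and DLGAP5 among the 6 spindle genes, and KIF23, PRC1 and ANLN among the 5 cytokinesis genes. FOXM1 (1.76, SE 0.34) and MYBL2 (1.38) passed too, whereas MKI67 (1.14), TOP2A (1.27) and the 3 anaphase genes did not. This fit leaves 2 libraries in each ALI arm.

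Leaving out single libraries gave other counts. Without silenced library 2 alone, a choice open to the same limit, 5 genes passed as higher (MAD2L1, MCM7, CDC6, CDT1 and TYMS), where 0.710% of all genes rose and 1.11% fell. No gene passed without any other single library. The median log2 fold change of the 52 genes was 0.70 without silenced library 1 and 0.73 without silenced library 3, and 1.62 without silenced library 2.

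**Figure D4:**
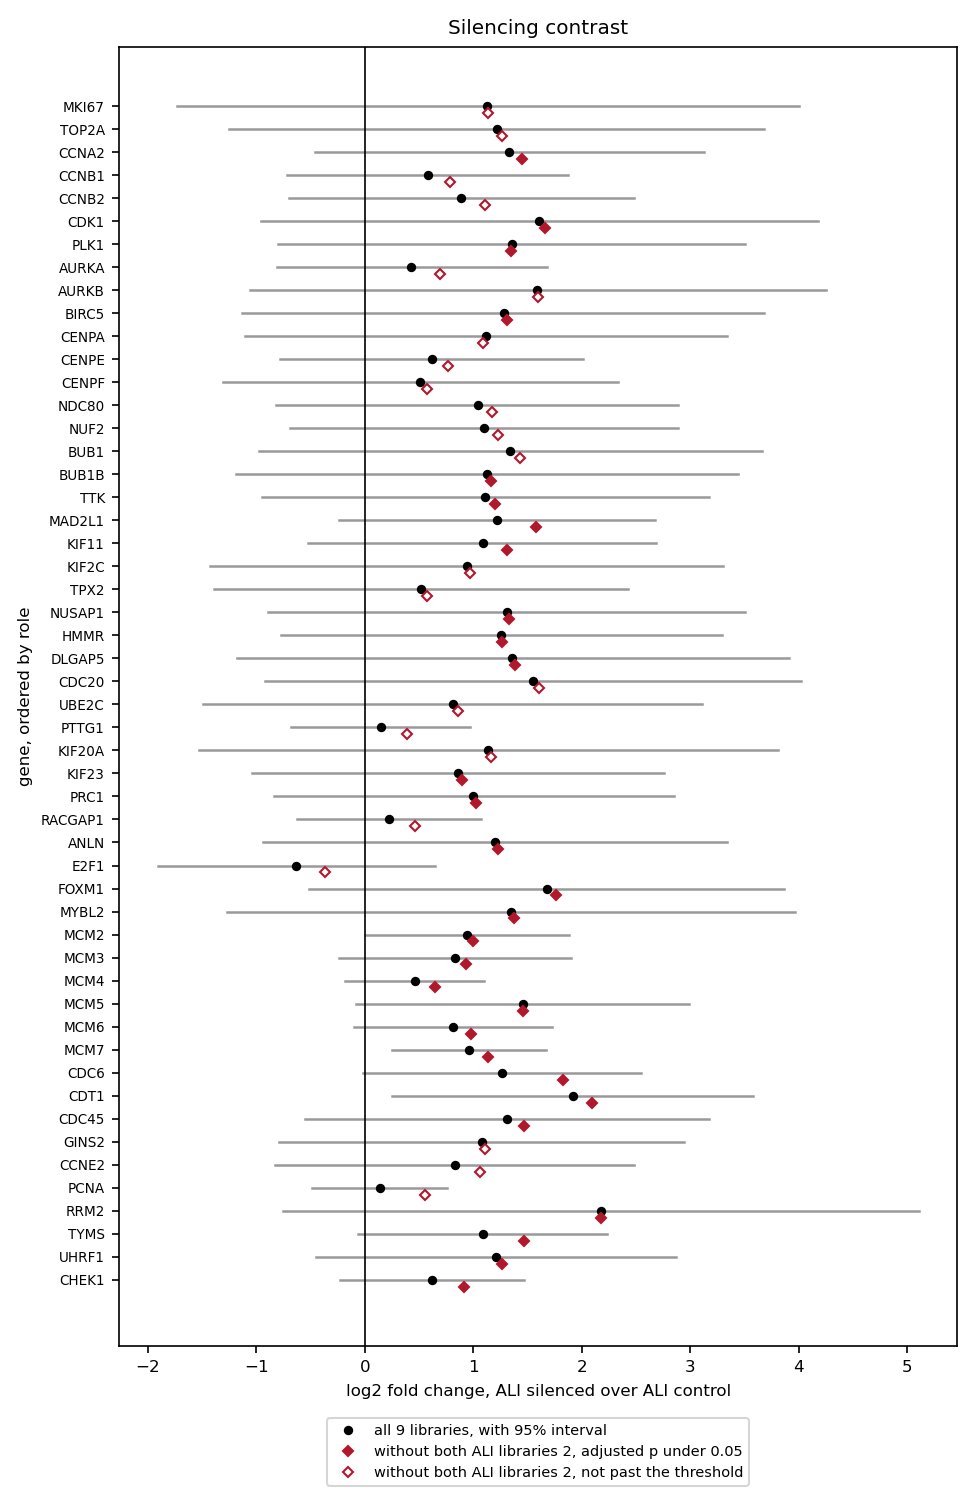
Log2 fold change of ALI silenced over ALI control for each of the 52 genes, by role down the page. Black points with 95% intervals use all 9 libraries, and none of the 52 passed. Red diamonds leave out both ALI libraries 2, and the 29 filled ones passed at an adjusted p under 0.05.

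Differentiation was compared as ALI control over monolayer libraries, which share the ALI controls with the comparison above. PTTG1 and E2F1 rose and TYMS and CHEK1 fell, while the other 48 genes did not pass. That is 2 higher and 2 lower of 52, where 20.3% of all genes passed as higher and 20.2% as lower. E2F1 stood at 3.44 ± 1.10 CPM in the ALI controls and 0.758 ± 0.180 CPM in the monolayers (SD, n = 3 each), and its log2 fold change was 2.18 (SE 0.63, adjusted p = 0.020). PTTG1 stood at 19.4 ± 2.47 CPM in the ALI controls and 8.62 ± 2.47 CPM in the monolayers, with 1.16 on the log2 scale (SE 0.38, adjusted p = 0.0337). CHEK1 was at 10.5 ± 1.11 CPM in the ALI controls and 33.4 ± 4.67 CPM in the monolayers (-1.67, SE 0.39, adjusted p = 0.00703), and TYMS at 8.73 ± 1.98 CPM in the ALI controls and 29.0 ± 0.312 CPM in the monolayers (-1.73, SE 0.52, adjusted p = 0.0233). All 3 libraries of each group showed the direction for these 4 genes.

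The calls rested on single libraries to different degrees. TYMS did not pass without control library 1 (adjusted p = 0.0749) or 2 (0.0634), or without monolayer library 1 (0.0535), 2 (0.0559) or 3 (0.0541). PTTG1 did not pass without control library 1 (0.0791) or 3 (0.0699), or monolayer library 2 (0.115) or 3 (0.10). E2F1 did not pass without control library 3 (0.0560) or monolayer library 1 (0.0646) or 2 (0.0709). CHEK1 passed without each single library and missed only when its largest entry alone was counted (0.111). The higher count of 2 became 11 without silenced library 2 (21.4% of all genes rose and 20.8% fell in that fit). It was 3 without control library 2 (19.5% rose), and both of these choices are open to the limit given above. It was 1 without control library 1 (18.4%), monolayer library 1 (15.2%) or monolayer library 3 (13.8%). It was 0 without control library 3 (20.9%) or monolayer library 2 (13.4%). The lower count of 2 became 1 without control library 1 (16.6% fell) or 2 (20.2%), or without monolayer library 1 (15.4%), 2 (14.2%) or 3 (14.5%). DESeq2 called 6 as higher and 2 as lower, where it called 23.5% and 21.8% of all genes.

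TYMS overlaps ENOSF1 on the opposite strand over 20.0% of its length. ENOSF1 had 13.1 to 26.1 CPM over the 9 libraries, and the strand setting of the counting is not given in the labels or tables. CHEK1 overlaps ACRV1 on the opposite strand, which had no count in any of the 9 libraries. CHEK1 has 3 entries in the tables, whose split varied between libraries, so the sum was used.

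Control and monolayer libraries did not overlap for 8 genes as higher (27.3% of all genes) and for 4 as lower (29.9%). The 8 were CCNB1, NDC80, PTTG1, RACGAP1, E2F1, CDC6, CDC45 and CCNE2, and the 4 were MCM2, TYMS, UHRF1 and CHEK1. RACGAP1 gave 1.03 (adjusted p = 0.0574), CCNE2 2.10 (0.0692), CDC45 2.17 (0.0940) and NDC80 2.10 (0.0968). The median log2 fold change of the 52 was 1.19, against 0.03 over all genes tested, and it depended on role. Medians of the mitotic roles lay between 1.07 (cyclins and kinases) and 1.73 (chromosome structure), the transcription factors were at 2.18, the licensing genes at 0.09 and the S phase genes at -0.34. MCM5 and MCM2 were at -1.02 (interval -2.55 to 0.51) and -0.60 (-1.54 to 0.33), and MCM7 at 0.00 (-0.71 to 0.71). The medians of licensing and S phase genes turned under some alternatives, the first to -0.14 without control library 3 and the second to 0.86 with only the largest entry of each gene. UHRF1 gave -0.96 on the sum of its 2 entries and 2.63 on the larger entry alone (adjusted p = 0.196). The larger entry had 25, 0 and 45 counts in the ALI controls and 16, 0 and 0 in the monolayers. The other had 13, 7 and 0 in the ALI controls and 65, 90 and 58 in the monolayers, so the direction for UHRF1 is uncertain.

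Without both ALI libraries 2, 40 genes passed as higher and 2 as lower in the ALI controls over the monolayers, where 24.9% of all genes passed as higher and 25.7% as lower, and the median was 1.71. The limit given above holds here too, since control library 2 was set aside for low values of these genes. All 36 genes of chromosome structure, mitosis, cytokinesis and transcription passed as higher in that fit, for example MKI67 (2.12, SE 0.41), CDK1 (2.20, SE 0.33) and MYBL2 (2.77, SE 0.37). Of the licensing genes CDC6 (0.98) and CDC45 (2.56) passed as higher, and of the S phase genes RRM2 (2.20) and CCNE2 (2.35) did. TYMS (-1.64) and CHEK1 (-1.58) passed as lower. MCM2 to MCM7 lay between -0.54 and 0.40 and none passed. Libraries 1 and 3 of the controls were both above all monolayers for 43 genes and both below them for 4. The share of all genes was not computed for these counts, so they give levels only.

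The ALI silenced libraries were also set against the monolayers, which were NSC cells, so this comparison joins silencing and differentiation and shares libraries with both others. Of the 52 genes 10 rose and none fell, where 15.8% of all genes passed as higher and 15.9% as lower. They were the kinetochore genes NDC80 (3.13) and NUF2 (2.82), the spindle genes KIF11 (2.47) and NUSAP1 (3.31), PTTG1 (1.31), RACGAP1 (1.25), the licensing genes MCM7 (0.96), CDC6 (2.32) and CDC45 (3.48), and CCNE2 (2.93), all as log2 fold changes. CDC6 had the lowest adjusted p, 0.0152 (SE 0.60), with 17.1, 2.89 and 23.2 CPM in the ALI silenced libraries, against 3.05, 2.73 and 2.77 CPM in the monolayers. Silenced library 2 lay among the monolayers for CDC6, and MCM7 was the 1 gene whose silenced libraries all lay above the monolayers (28.0% of all genes), at 61.2, 24.9 and 49.4 CPM in the ALI silenced libraries, against 24.2, 23.5 and 21.8 CPM in the monolayers. These MCM7 values are the sum of 2 entries. The larger entry alone did not pass (adjusted p = 0.340) and had 8.11 CPM in silenced library 2, against 9.84, 16.4 and 12.2 CPM in the monolayers. TYMS and CHEK1 were the 2 genes whose silenced libraries all lay below them (27.7% of all genes), with log2 fold changes of -0.64 (adjusted p = 0.350) and -1.05 (adjusted p = 0.0565).

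The median log2 fold change was 2.28, against 0.04 over all genes tested, and the mitotic roles had medians between 2.11 and 2.91, the licensing genes 0.98 and the S phase genes 0.33. The S phase median was -0.05 without silenced library 1. The count of 10 was not stable. It was 0 without silenced library 3 or without monolayer library 2 or 3, 2 without monolayer library 1 (CCNE2 and PTTG1), 3 without silenced library 1 (CCNE2, CDC45 and CDC6), 7 without control library 1 and 9 without control library 3. It was 24 without control library 2, with 1 lower, where 22.9% of all genes rose and 21.3% fell. Without silenced library 2 it was 47, with 1 lower, where 15.4% of all genes rose and 14.6% fell. Both choices are open to the limit given above, so the distance of 24 and 47 from these shares cannot be read as support. Adjusted p-values of the calls ended by 1 library lay between 0.0501 and 0.146. DESeq2 called 25 as higher and CHEK1 as lower, where it called 19.1% and 18.1% of all genes. The count with limma-voom was 0 as higher, where it called 15.3% of all genes. Without both libraries 2, under the same limit, 50 passed as higher and 1 as lower, where 26.1% of all genes passed as higher and 23.9% as lower. The 1 was CHEK1 (-0.67), and TYMS gave -0.17.

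**Figure D5:**
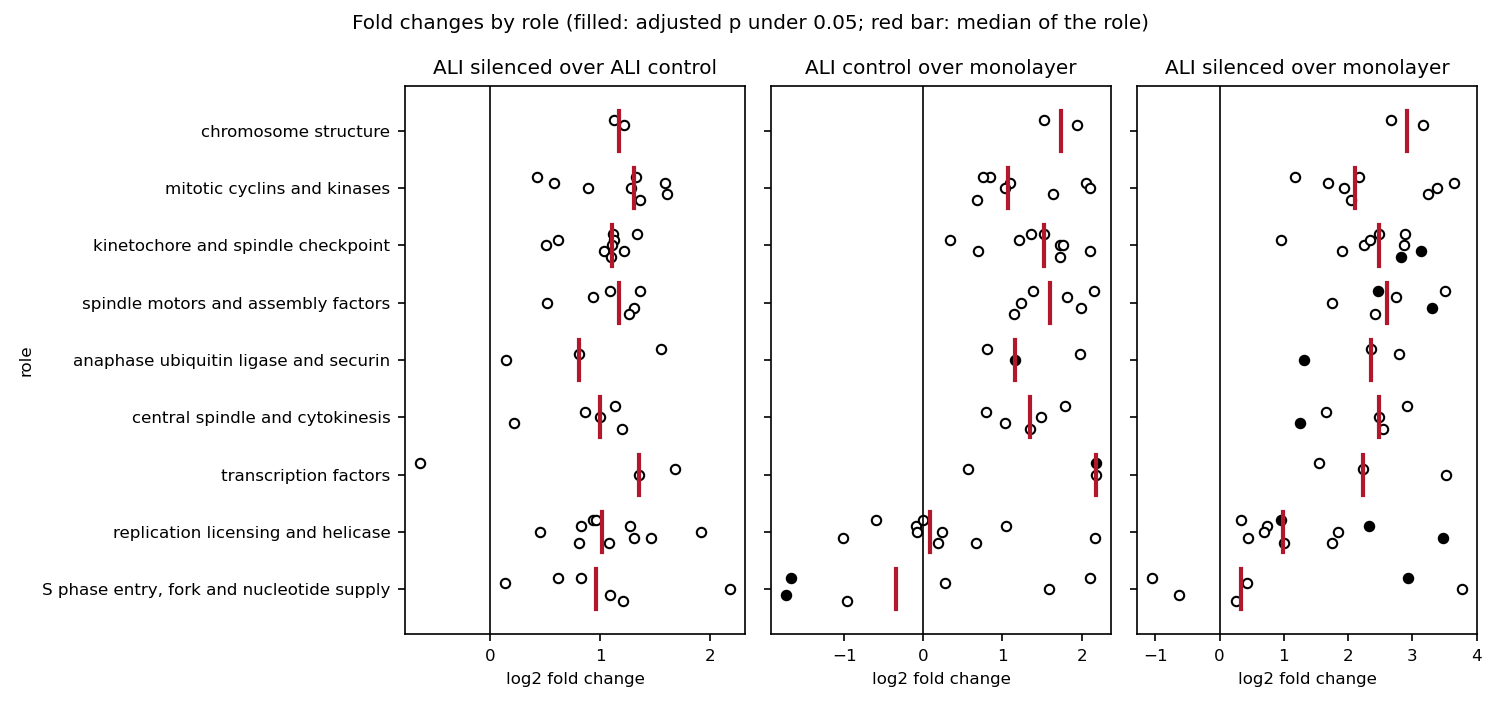
Log2 fold change of each gene by role in the 3 comparisons, with a red bar at the median of the role and filled points past an adjusted p of 0.05. The roles lie near each other in ALI silenced over ALI control, where none of the points is filled, and the medians of licensing and S phase genes lie left of those of the mitotic roles in both comparisons with the monolayers.

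Further genes of the same processes, from lists drawn up with earlier results in view, were read beside the 52. In ALI silenced over ALI control none of 49 further replication genes, 65 further mitosis genes or 19 homologous recombination and Fanconi genes passed in either direction, with median log2 fold changes of 0.65, 0.95 and 0.80. Without both libraries 2, under the limit given above, 14, 23 and 7 of them passed as higher and none as lower, where 2.17% of all genes rose and 3.31% fell. Without silenced library 2 alone, under the same limit, 2, 2 and 1 passed as higher, where 0.710% of all genes did. In ALI control over monolayer 7 of 49 replication genes rose and 1 fell, 5 of 65 mitosis genes rose, and 2 of 19 recombination genes rose, each below the 20.3% of all genes that rose there. In ALI silenced over monolayer, where 15.8% of all genes rose, 16 replication genes rose and 1 fell, 16 mitosis genes rose, and 5 recombination genes rose. Without both libraries 2, under the limit given above, 20, 39 and 7 rose and 3, 0 and 1 fell in ALI control over monolayer. There 24.9% of all genes rose and 25.7% fell. In ALI silenced over monolayer 42, 62 and 16 rose and 1, 0 and 0 fell, where 26.1% of all genes rose and 23.9% fell. With 1 library left out the higher counts of these 3 lists ranged over 3 to 11, 3 to 13 and 1 to 5 in ALI control over monolayer. The share of all genes that rose was then 13.4% to 21.4%. In ALI silenced over monolayer they ranged over 3 to 33, 4 to 52 and 2 to 15, where 9.89% to 22.9% of all genes rose. Each highest count came without silenced library 2 (21.4% and 15.4% of all genes rose), a choice open to the limit given above. The lowest counts of ALI silenced over monolayer came without silenced library 3, for the recombination genes also without monolayer library 1 or 2 and for the replication genes also without monolayer library 3. Those of ALI control over monolayer came without monolayer library 2 for all 3 lists, and for the mitosis and recombination genes also without other libraries. Of the 15 genes of the DREAM and RB complexes, which hold cell cycle genes off in resting cells, none passed in ALI silenced over ALI control (median 0.07), E2F3 fell in ALI control over monolayer (-0.75, SE 0.25, adjusted p = 0.0377), and LIN9 rose in ALI silenced over monolayer (1.22, SE 0.35, adjusted p = 0.0254). The E2F3 call was lost without silenced library 3, control library 2 or 3, or any 1 monolayer (adjusted p 0.0529 to 0.0914). The LIN9 call was lost without silenced library 3 or any 1 monolayer (0.0635 to 0.109). Of the 16 p53 targets and growth arrest genes none passed with silencing. In ALI control over monolayer 1 rose and 7 fell, where 20.3% of all genes rose and 20.2% fell. Among the 7 was XPC (-1.72, adjusted p = 8.36e-05), a damage recognition factor, whose adjusted p was 0.000101 to 0.000936 with 1 library left out. The count of 7 was 3 without control library 1 (16.6% of all genes fell) and 4 without monolayer library 2 (14.2%) or 3 (14.5%). It was 10 without control library 2 (20.2%).

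Other E2F factors went beside E2F1. E2F2, an activator, had 5.05, 1.24 and 5.15 CPM in the ALI silenced libraries, 7.77, 4.92 and 9.52 CPM in the ALI controls, and 0.142, 0.101 and 0.106 CPM in the monolayers, and it rose in ALI control over monolayer (5.82, SE 0.70, adjusted p = 0.000177). E2F8, an atypical repressor, had 6.63, 1.17 and 6.67 CPM in the ALI silenced libraries, 1.21, 0.631 and 2.64 CPM in the ALI controls, and no count in any monolayer. With counts pooled over each group, and against a floor of 3 counts over the monolayer group, E2F8 was at least 47.8-fold higher in the ALI silenced group. It was at least 17.5-fold higher in the ALI control group. These folds do not hold for each library, as E2F8 was lowest in library 2 of each ALI arm. E2F7, the other atypical repressor, had 20.8, 22.8 and 23.9 CPM in the ALI silenced libraries, 14.3, 14.8 and 10.7 CPM in the ALI controls, and 58.1, 72.7 and 71.2 CPM in the monolayers, and it fell in ALI control over monolayer (-2.34, SE 0.21, adjusted p = 2.71e-05). Unlike most of the 52 genes, E2F7 had no gap in ALI library 2. Among the mitosis genes FAM83D, a spindle protein, and ESPL1, the protease separase, rose in ALI control over monolayer by log2 fold changes of 3.38 (SE 0.54, adjusted p = 0.000934) and 2.70 (SE 0.51, adjusted p = 0.00247).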

How the data were processed

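RNA of 9 EPC2 libraries was sequenced from polyA-selected, stranded preparations, per the labels' protocols. The authors deposited, per library, a table with 1 entry for each transcript group, holding a raw read count and an RPKM value; per the submitters' processing notes the genome build was hg19, and STAR 2.4.2a, Bowtie and MACS2 were named. These sources name no counter, annotation or strand setting for the counts. The deposited counts were summed per gene symbol and chromosome, from 29800 entries to 24672 genes, and 9 of the 52 genes had several entries. The deposited RPKM values were summed likewise and served only to order levels per length.

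Counts were scaled by the trimmed mean of M values, filtered with filterByExpr and tested in 1 fit over the 9 libraries with the quasi-likelihood F-test of edgeR 4.0.16 (R 4.3.3), adjusted by Benjamini-Hochberg over the 12806 genes tested in each comparison, with a threshold of 0.05. A count of 0 allows up to 3 counts, which covers counting error only. DESeq2 1.42.0, limma-voom (limma 3.58.1), other filters and scalings, a replicate block and left-out libraries were run as alternatives. Only the main edgeR fit was tested on simulated counts, in ALI silenced over ALI control, and these held no library that stood apart. Library numbers are those of the labels, and the tables' names number some ALI libraries otherwise. The genes, lists and tests were chosen with earlier results of these data known. For each role, genes with the largest and smallest silencing fold change and the largest differentiation fold change, plus MKI67, TOP2A and PCNA, are given in every library, and up to 3 genes per further list and comparison are named by fold change. One listed marker gene is not reported here. Gene positions are on hg19 as in the tables; promoter windows are on GRCh38.p14, and the builds were not mixed.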

Additional observations from a re-analysis of the deposited data

How the results depend on the processing

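In ALI silenced over ALI control, the count of higher genes (0) was 0 to 5 with 1 library left out (0.0231% to 0.710% of all genes rose). It was 8 with the replicate number as a block on the 2 ALI groups alone (1.40%) and 29 without both ALI libraries 2 (2.17%). In ALI control over monolayer, the higher count (2) was 0 to 11 with 1 library left out (13.4% to 21.4% of all genes rose). It was 6 with DESeq2 (23.5%), 1 with a stricter filter of 1 CPM in 6 libraries (20.3%) and 7 with only the 2 groups in the fit (19.0%). The replicate block gave 4 over 9 libraries (19.2%) and 6 over the 2 groups (14.7%), and 40 passed without both libraries 2 (24.9%). The lower count (2) was 1 to 2 with 1 library left out (14.2% to 20.8% of all genes fell) and 1 with the largest entry of each gene (18.3%). In ALI silenced over monolayer, the higher count (10) was 0 to 47 with 1 library left out (9.89% to 22.9% of all genes rose). It was 25 with DESeq2 (19.1%), 0 with limma-voom (15.3%), 6 with the replicate block on 2 groups (17.0%) and 50 without both libraries 2 (26.1%). The lower count (0) was 0 to 1 with 1 library left out (9.77% to 21.3% of all genes fell). It was 1 with DESeq2 (18.1%), with limma-voom (17.1%), without a filter (11.1%), with the replicate block over 9 libraries (16.0%) and without both libraries 2 (23.9%). Counts without an ALI library 2 are open to the limit given above. The median log2 fold change over all tested members kept its sign under each alternative run. Medians by role did not: in ALI control over monolayer the licensing genes ranged over -0.14 to 0.30 and the S phase genes over -0.79 to 0.86, and in ALI silenced over monolayer the S phase genes over -0.05 to 1.63. Single estimates turned for 4 genes with silencing, 10 in ALI control over monolayer and 1 in ALI silenced over monolayer, and 0 passed after turning. In the last 2 comparisons UHRF1 ranged over -1.37 to 2.63 and -0.45 to 4.11, with both highest values on its larger entry alone. The others turned by less: in ALI silenced over ALI control CENPF ranged over -0.10 to 1.01, RACGAP1 over -0.07 to 0.56, PCNA over -0.10 to 0.38 and PTTG1 over -0.20 to 0.47 with 1 library left out, and PTTG1 was -0.01 with limma-voom. In ALI control over monolayer CDT1 ranged over -0.56 to 0.26, and was 0.26 without both libraries 2, CDC20 and FOXM1 were -0.02 and -0.04 with the block over 9 libraries, and RRM2 and PLK1 were -0.35 and -0.11 with limma-voom. There GINS2 and MCM6 were -0.07 and -0.06 without control library 3, MCM3 was 0.22 without control library 2, and MCM7 moved about 0. The causes were not tested, save that fewer libraries or genes enter some fits.

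The labels number the libraries of each group alike without saying what a number marks. Deviations from the group mean of same-numbered ALI silenced and ALI control libraries correlated over 12806 genes at 0.49, 0.58 and -0.01 for numbers 1, 2 and 3. Silenced library 1 correlated best with control library 3 (0.64), and silenced library 3 with control library 1 (0.21). The numbers were therefore not taken as pairs, and a pairing across numbers was not fitted. At 0 to 14 counts, as for RRM2 in ALI libraries 2, the depth limits any single value.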
